A study of Drosophila melanogaster with 27 samples.

Results

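The narrowest H4K20me1 peaks of the wing disc lie nearly all in genes, mostly in the neighbourhood of wider peaks. They were chosen by their measured width, 150 bp, the smallest in the deposited peak list for Oregon-R wild-type discs, and they number 1057 of 6914 peaks (15.3%). CUT&RUN, in which an antibody tethers micrococcal nuclease to chromatin and the fragments it frees are sequenced, was run on 20 wing imaginal discs per library, from female wandering larvae of instar 3 raised at 25 °C. The list sets Oregon-R libraries with an antibody against H4K20me1 (n = 3) against Oregon-R libraries with no primary antibody (n = 3). Both groups have the same genotype, carry no transgene or mutation per the labels, and differ in the antibody. The other 21 libraries were not analysed here. They came from Set8null (yw;;Set820/20), Set8rg and Set8wt discs, from K20A, K20R and HWT discs that lack the histone gene complex and carry a 12xK20A, 12xK20R or 12xHWT array, and from K20R and HWT discs of that kind in a His4rnull background.

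Monomethylation of lysine 20 of histone H4 is placed by Set8, the only known enzyme for this step in flies, and is a substrate for Hmt4-20, which adds further methyl groups. L(3)mbt, a protein with malignant brain tumour domains, can bind the monomethylated residue. The mark is known for its rise through the cell cycle towards mitosis and for broad domains over the bodies of transcribed genes. A 150 bp peak is the smallest width in the list. How peaks were called is not known here, so whether this width is the extent of the mark was not tested.

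The width was the measure that chose these peaks, and the values that follow from it are a description with no test. Each peak is listed by position and width alone, without a score, a fold or a value per library, so the strength of a 150 bp peak and its spread between libraries are unknown here. For the same reason no difference between 150 bp peaks and wider peaks was tested below. Intervals are 95% Wilson intervals, which treat peaks or genes as independent draws and cover counting error only.

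At 150 bp stood the largest number of peaks of any single width. Just outside lay 422 peaks of 200 bp, 274 of 250 bp and 216 of 300 bp, all on a 50 bp grid. Although they made up 15.3% of the peaks, the 150 bp peaks held 158550 bp, or 0.906% of the 17494550 bp covered. By contrast, 30.5% of it fell in the 328 peaks that reached 10 kb.

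**Figure D1:**
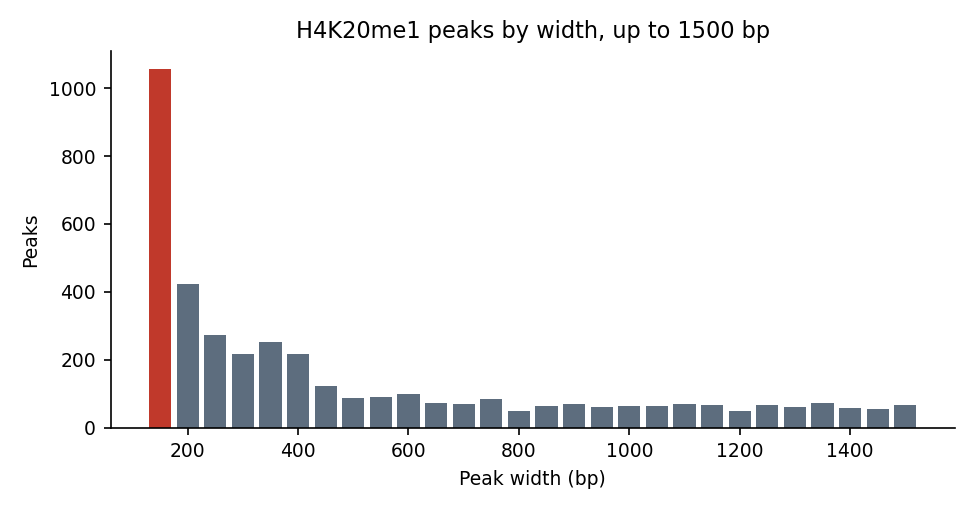
Number of H4K20me1 peaks (vertical axis) at each width in bp (horizontal axis), for widths up to 1500 bp; the bar in red is the 150 bp peaks and the grey bars are wider peaks. The red bar stands at 1057 peaks, against 422 at 200 bp.

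On the chromosome arms, 150 bp peaks were spread in rough proportion to all peaks. They numbered 165 of 1143 peaks on 2L (14.4%, 95% CI 12.5 to 16.6), 209 of 1419 on 2R (14.7%) and 190 of 1326 on 3L (14.3%, 95% CI 12.5 to 16.3). On 3R there were 275 of 1628 (16.9%, 95% CI 15.2 to 18.8) and on X 200 of 1303 (15.3%, 95% CI 13.5 to 17.4). The small chromosome 4 had 16 of 93 (17.2%, 95% CI 10.9 to 26.1), and all of the intervals given overlap. Their density was 7.90 per Mb over the 6 arms, from 6.77 per Mb on 3L to 8.58 per Mb on 3R among the large arms, and 12.6 per Mb on chromosome 4. Wider peaks also had their highest density on chromosome 4, at 60.5 per Mb, against 40.5 per Mb on 3L to 47.9 per Mb on 2R among the large arms.

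The list holds 2 peaks on the Y chromosome, and both are 150 bp wide. The discs were female, and females of this species carry no Y; where the reads behind these peaks came from was not tested. The peaks, at Y 995801 to 995950 and Y 3504301 to 3504450 (dm6), overlap no annotated gene. The nearest genes are Su(Ste):CR42438, a long non-coding RNA gene of the Suppressor of Stellate repeats, 4125 bp from the first, and the phosphatase gene Pp1-Y2, 34986 bp from the second. No wider peak exists on Y.

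Nearly all of the 150 bp peaks lay in protein-coding genes. Of the 1057, 1015 overlapped at least 1 such gene by 1 bp or more (96.0%, 95% CI 94.7 to 97.0). The same share was 98.8% of the 5857 wider peaks (95% CI 98.4 to 99.0) and 98.3% of all peaks. It was 96.9% at 200 bp, 96.8% at 250 to 500 bp and 99.2% at 550 to 1000 bp. A longer peak touches a gene more easily, so the share depends on width by construction. Exactly 1 gene was overlapped by 918 of the 150 bp peaks, 2 genes by 91 and 3 genes by 6. The whole peak lay inside a gene in 945 cases (89.4%), and 89 peaks crossed a gene's edge.

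The 150 bp peaks lay along the whole gene body. Positions were taken where coding genes of 2 kb or longer overlap no other such gene (4251 genes), and there 439 of these peaks lay in 350 genes. The outer 25% at each end of the body, which make up 50% of it, held 52.2% of their midpoints (95% CI 47.5 to 56.8), an interval that includes the share of the body itself. Of 3161 wider peaks in such genes, 49.9% had their midpoints there (95% CI 48.2 to 51.7). By decile of the body, the share of 150 bp peak midpoints was 14.1% at the low-coordinate end and 11.8% at the high-coordinate end. It was lowest in the third decile, at 6.15%. For wider peaks the end deciles held 12.9% and 12.7%. Any overlap of 1 bp or more counted, and a midpoint beyond the gene's edge was placed in the end decile, which raises the end shares. With the midpoint of the 150 bp peak required inside the gene, the outer share was 50.2% instead of 52.2%. The median distance from midpoint to the nearer gene end was 2296 bp for 150 bp peaks (quartiles 906 and 7194 bp) and 2128 bp for wider peaks (quartiles 808 and 5606 bp). Within 500 bp of an end lay 16.2% of the 150 bp peaks and 19.3% of the wider peaks. For 150 bp peaks this share was 30.4% in genes with only such peaks and 11.3% in genes that also carried wider peaks. Gene length was not matched between these sets. Gene strand was not used, and the 5′ and 3′ ends were pooled.

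Outside protein-coding genes lay 42 of the 150 bp peaks (3.97%, 95% CI 2.95 to 5.33) and 73 of the wider peaks. The median distance to the nearest protein-coding gene was 2588 bp for the 42 peaks and 3354 bp for the 73. Within 1 kb of a gene were 19 of the 42, among them a peak 25 bp from eIF3m, a translation initiation factor gene, one 263 bp from Prosalpha4, a proteasome subunit gene, and one 805 bp from the homeodomain selector gene en. These 3 genes, and the non-coding genes below, were named after their values were seen. More than 10 kb from any such gene lay 13 peaks. The farthest were near ATbp on X (401719 and 229119 bp), ARY on Y (291752 bp), DIP1 on X (207302 bp) and AGO3 on 3L (91592 bp), in the centromere-proximal parts of the arms or on Y. Of the 42 peaks, 37 overlapped no annotated gene of any kind, and the other 5 touched a non-coding gene or a pseudogene, such as lncRNA:CR32111, 18702 bp from the Iroquois gene caup.

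Few of the narrowest peaks touched small RNA genes. A single one overlapped a snoRNA gene, snoRNA:Pi4KIIalpha-a, and none touched a miRNA or tRNA gene, whereas 70 wider peaks touched snoRNA genes, 45 miRNA genes and 8 tRNA genes. Wider peaks cover far more sequence, and these counts were not set per covered bp. Long non-coding RNA genes were touched by 17 of the 150 bp peaks (1.61%), 5 of them in lncRNA:CR32773, and by 186 wider peaks (3.18%). Antisense RNA genes were touched by 10 of the 150 bp peaks (0.946%) and by 142 wider peaks (2.42%). A single peak touched RNaseMRP:RNA, the RNA of the ribonuclease that processes ribosomal RNA.

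Wider peaks were close by in most cases. The gap from a 150 bp peak to the nearest peak wider than 150 bp had a median of 2150 bp (quartiles 1400 and 4625 bp; 1055 peaks, those on Y left out). The gap from a wider peak to the nearest other wider peak had a median of 1750 bp (quartiles 1250 and 3250 bp; 5857 peaks). For the 422 peaks of 200 bp, the gap to the nearest peak wider than themselves had a median of 2175 bp. No gap in the list is below 1050 bp, and 42 of the 150 bp peaks lay exactly 1050 bp from a wider one. Within 5 kb of a wider peak were 807 of the 150 bp peaks (76.5%) and 4889 of the wider peaks (83.5%). Over 10 kb away were 129 (12.2%) and 496 (8.47%).

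**Figure D2:**
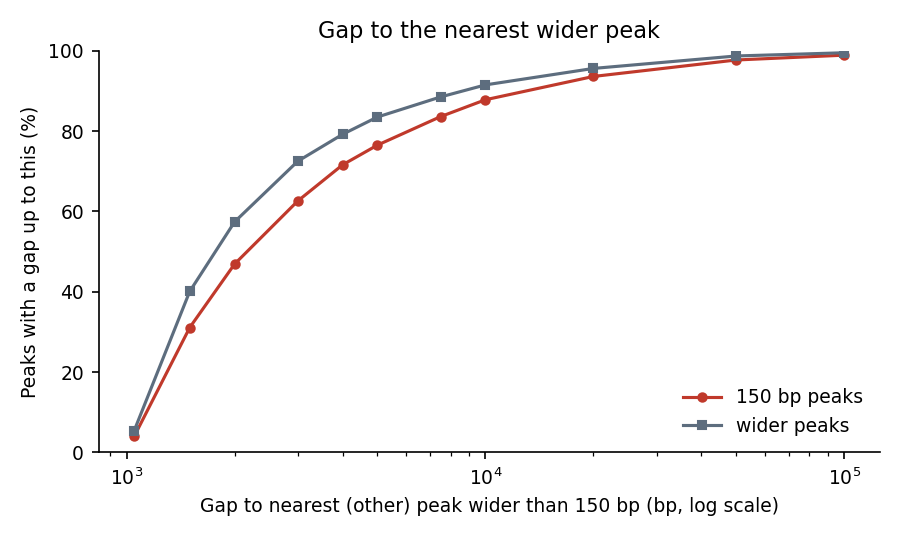
Cumulative share of peaks in % (vertical axis) whose gap to the nearest peak wider than 150 bp is at most the value in bp on the horizontal log axis; red circles are 150 bp peaks and grey squares are wider peaks, measured to the nearest other wider peak. At 2000 bp the red line stands at 46.9% and the grey line at 57.4%, and both exceed 98% at 100000 bp.

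The nearest wider peak was usually in the same gene. For 656 of 1055 peaks it shared a protein-coding gene with the 150 bp peak (62.2%, 95% CI 59.2 to 65.1), and for wider peaks and their nearest other wider peak the share was 61.0%. Gaps were shorter where a gene was shared, with a median of 1775 bp, than in the other 399 cases, with a median of 3550 bp. The neighbour was itself often modest in width, with a median of 1200 bp (quartiles 350 and 3075 bp), against 1500 bp (quartiles 450 and 3600 bp) for all wider peaks. In 98 cases it was only 200 bp wide, and in 48 it was 10 kb or more. Wider peaks stood within 5 kb on both sides of 318 of the 150 bp peaks (30.1%) and of 2297 wider peaks (39.2%).

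At the near end of the range stood Mon1, a gene of endosome maturation, where a peak at 2L 4850601 to 4850750 lay 1050 bp from a 3300 bp peak and reached 110 bp into the gene. In Nin, Btk, which encodes a Tec-family tyrosine kinase, and CG9171, a 150 bp peak lay 1050 bp from wider peaks of 2700, 1000 and 450 bp. CG7806 carried such a peak 1050 bp from one of 4650 bp that lies outside the gene. At the far end were peaks in the gene-poor stretches next to centromeres. They include 2 in Myo81F, a myosin gene that spans 1965857 bp at the base of 3R, which lay 385700 and 220000 bp from a wider peak. A peak in lovit on 3L lay 343450 bp away, one on X at 21837451 to 21837600, in no gene, 207750 bp away, and one in Gprk1 on 2R 154450 bp away. In these the wider neighbour measured between 200 and 3950 bp.

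Most 150 bp peaks had no other 150 bp peak next to them. As such peaks made up 15.3% of the list, most of them would be single in a random order too. Neither neighbour in the list was a 150 bp peak for 721 of the 1057, whereas 296 had 1 such neighbour and 40 had 2. Runs without a wider peak between them held 2 peaks in 114 cases, 3 peaks in 29, 4 peaks in 4 and 5 peaks in 1. The run of 5 lay in Fas2, a homophilic adhesion gene of the immunoglobulin superfamily, over 21450 bp (X 4148801 to 4170250). A run of 4 over 7300 bp lay in Pli, the Pellino gene of Toll signalling (3R 23862801 to 23870100). Another run of 4 passed through tutl, CG17612, Vps53 and the GINS replication gene Psf2 over 84150 bp. A further one passed through CNBP, CG9849, twi and CG42741 over 87450 bp.

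In 675 of the 1057 peaks (63.9%, 95% CI 60.9 to 66.7), every protein-coding gene overlapped also carried a wider peak. No overlapped gene carried one in 310 (29.3%, 95% CI 26.7 to 32.1), and 30 peaks overlapped genes of both kinds. The gap to a wider peak had a median of 1800 bp for the 675 and 3900 bp for the 310, an order that follows in part from how the sets were defined.

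Across genes, 5339 of 13922 protein-coding genes on the 6 arms carried a peak of any width (38.3%). A 150 bp peak was carried by 869 genes (6.24%), of which 516 also carried a wider peak and 353 did not (2.54% of all genes, and 6.61% of the genes with a peak, 95% CI 5.98 to 7.31). Since peak width chose the members, these counts are a description.

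The 516 genes with both kinds were long. Their median length was 17408 bp (quartiles 6626 and 41240 bp), against 3020 bp for the 4470 genes with only wider peaks. This order follows in part from the definition. A gene with both kinds needs more than 1 peak, and no gap is below 1050 bp, so the shortest genes could not be among them. The shortest of the 516 measured 1481 bp. Peaks of all widths covered a median of 24.6% of their bodies, and the 150 bp peaks 1.06%. More than 1 wider peak was present in 311 of them. Of 740 pairs of such a gene and a 150 bp peak, 312 had wider peaks of the same gene on both sides, and 428 lay to one side of all of them.

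The gene with the most was dpy, which encodes the giant extracellular matrix protein Dumpy that anchors the wing epithelium to the cuticle. It spans 136839 bp (2L 4477462 to 4614300) and carried 9 peaks of 150 bp among 19 wider ones. Of these 9, 6 lay within 34864 bp of its low-coordinate end, with gaps of 1100 to 2050 bp to a wider peak. Wider peaks there were short, since the nearest ones measured between 200 and 650 bp.

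With 6 each followed pum, the gene of the translational repressor Pumilio (36 wider peaks), CG43658 (13 wider peaks) and Fas2 (9 wider peaks). In Fas2, the last 3 of its run of 5 lay 2000 and 1550 bp apart. The genes mgl, which encodes a megalin-type endocytic receptor, Fur1, a furin-type proprotein convertase gene, Svil, a supervillin gene, and osp carried 5 each. In osp the 150 bp peaks outnumbered the 3 wider ones, and 4 of its 5 lay 14150 to 23950 bp from the nearest wider peak. Pli likewise carried 5, equal to its number of wider peaks.

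**Figure D3:**
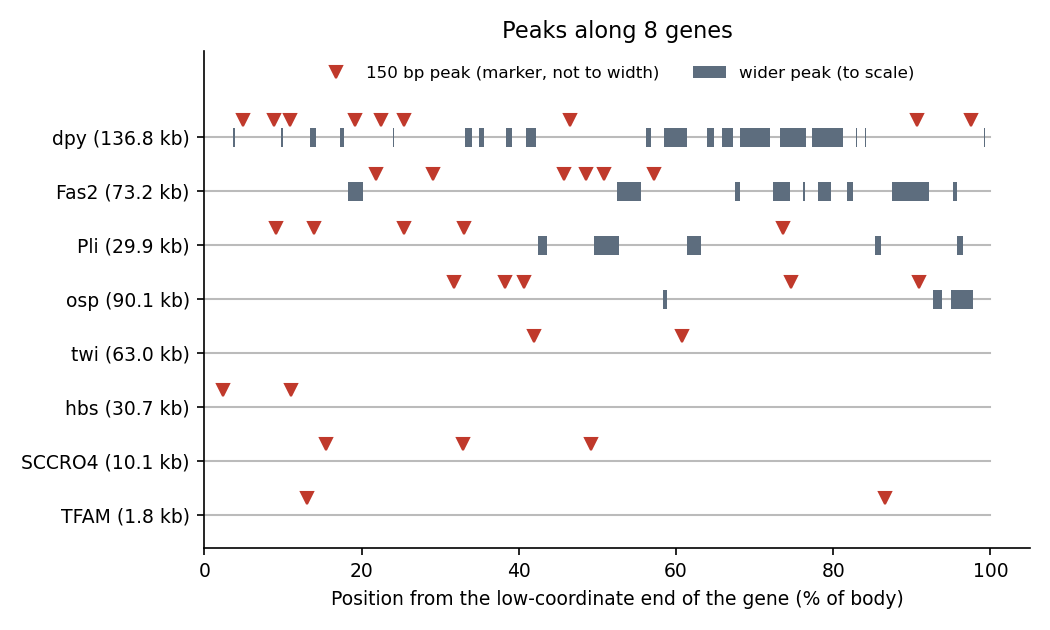
Peaks along 8 genes, with position as % of the gene body from the low-coordinate end (horizontal axis) and gene lengths in kb beside the names; red triangles mark 150 bp peaks (not drawn to width) and grey boxes are wider peaks to scale. dpy, Fas2, Pli and osp carry both kinds, whereas twi, hbs, SCCRO4 and TFAM carry 150 bp peaks alone.

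The 353 genes that carried only 150 bp peaks were shorter. Their median length was 2529 bp (quartiles 1564 and 5013 bp), and the peaks covered a median of 5.34% of the body (quartiles 2.59 and 8.33%), against 56.1% in genes with only wider peaks. A single 150 bp peak was present in 329 of them, 2 in 23 and 3 in 1. Another protein-coding gene overlapped 190 of the 353 (53.8%), of which 59 overlapped one that carried a wider peak (16.7%), so a peak cannot always be assigned to the gene named. The nearest wider peak lay a median of 2059 bp beyond the gene's edge. It was within 1 kb for 81 genes, within 5 kb for 247 (70.0%) and over 10 kb away for 64. For genes with no peak at all the median was 8721 bp, and 39.3% had a wider peak within 5 kb.

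By gene length, genes with only 150 bp peaks were most frequent in the middle of the range. Their share was 0.431% of the shortest genes (lowest decile, median 567 bp) and was highest in the sixth, at 3.81%, with a median of 2450 bp. In the longest decile, with a median of 28800 bp, it was 2.73%. Genes with both kinds became more frequent with length, and made up 20.1% of the longest decile. As a share of the genes with a peak, those with only 150 bp peaks made up 9.77% in the third decile, 9.73% in the fifth and 4.19% in the eighth.

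**Figure D4:**
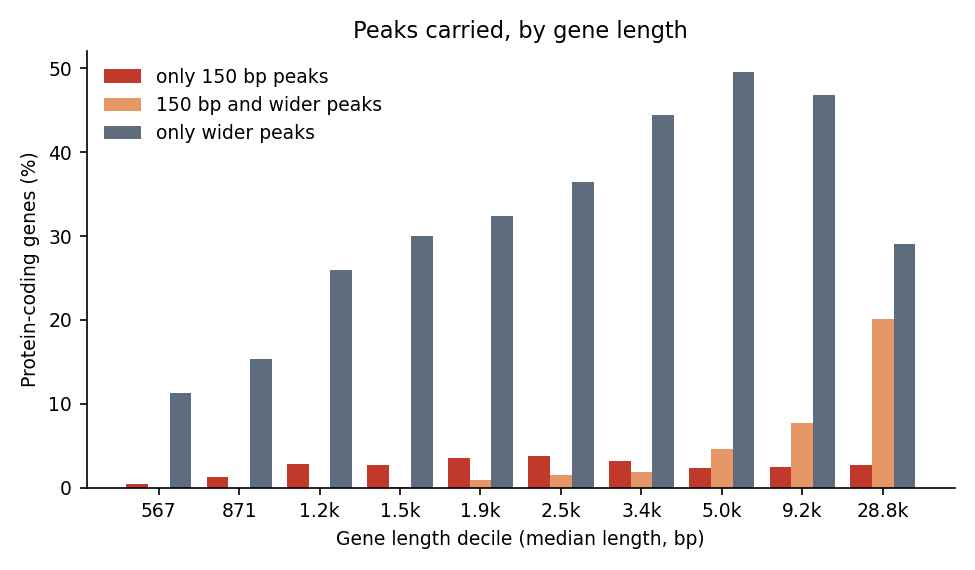
Share of protein-coding genes in % (vertical axis) in each decile of gene length, labelled by its median length in bp (horizontal axis); red bars are genes with only 150 bp peaks, orange bars genes with 150 bp and wider peaks, and grey bars genes with only wider peaks. Red bars peak at 3.81% in the sixth decile and orange bars at 20.1% in the longest.

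SCCRO4, a gene of cullin neddylation, was the only gene with 3 peaks of 150 bp and no wider one. Its peaks lay 1600 and 1500 bp apart on 3L, of which the first also overlaps Pex23 and the last CG32225, and the nearest wider peak, of 4300 bp, lay 6400 bp from the closest of them. Next by length among the genes with 2 came Gprk1, a G protein-coupled receptor kinase gene (148766 bp), CG4374 (63595 bp) and twi (62952 bp). Spn, the gene of the scaffold protein Spinophilin, Fhos, a formin gene, CG42741 and hbs, the nephrin-family adhesion gene hibris, followed. The twist gene, which specifies mesoderm and marks the adult muscle precursors attached to the disc, spans CG42741, and both of its peaks lie in that nested gene too. They lay 49350 and 37500 bp from the nearest wider peak, itself only 200 bp wide. In hbs both peaks lay near 1 end of the gene, with midpoints 730 and 3380 bp from it, and 20000 and 22650 bp from a 4500 bp peak.

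The longest of the 353 genes was lovit, at 434041 bp, with 1 peak over 0.0346% of its body. Gprk1, the glucose transporter gene Glut1 (79715 bp), CG9380 (71691 bp), the laminin alpha-chain gene wb (65236 bp) and CG4374 came next, and each carried 1 or 2. The peak in CG9380 also overlaps CG30428. In Glut1 and wb the peak lay 36150 and 25700 bp from a wider one. From the gene's edge, the nearest wider peak lay 3062 bp away for Glut1 and 16038 bp away for wb.

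Among genes of at least 500 bp, those covered most were short, from Alg14 (21.6% of 696 bp) and CG15296 (20.0% of 750 bp) through CG33641 (19.2%) and CG43845 (18.2%) to Saysd1 (17.4%). TFAM, the mitochondrial DNA packaging factor gene (3R 20575245 to 20577010), was covered to 17.0% by 2 peaks with midpoints 230 and 234 bp from its ends. Their separation was 1150 bp, and the nearest wider peak of 1050 bp was 1800 bp from the closer one. CG15296, CG33641 and CG43845 each overlap another gene that carries a wider peak.

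Members of the gene lists carried 150 bp peaks alone about as often as all protein-coding genes. Over all 909 listed genes, 67 carried a 150 bp peak (7.37%, against 6.24% of all protein-coding genes) and 20 carried no other (2.20%, against 2.54%). As a share of the members with a peak, the 20 made up 4.74%, against 6.61% over all genes. The lists differ in gene length. Among all protein-coding genes, a 150 bp peak was carried by 0.431% of the shortest length decile and 22.8% of the longest.

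**Figure D5:**
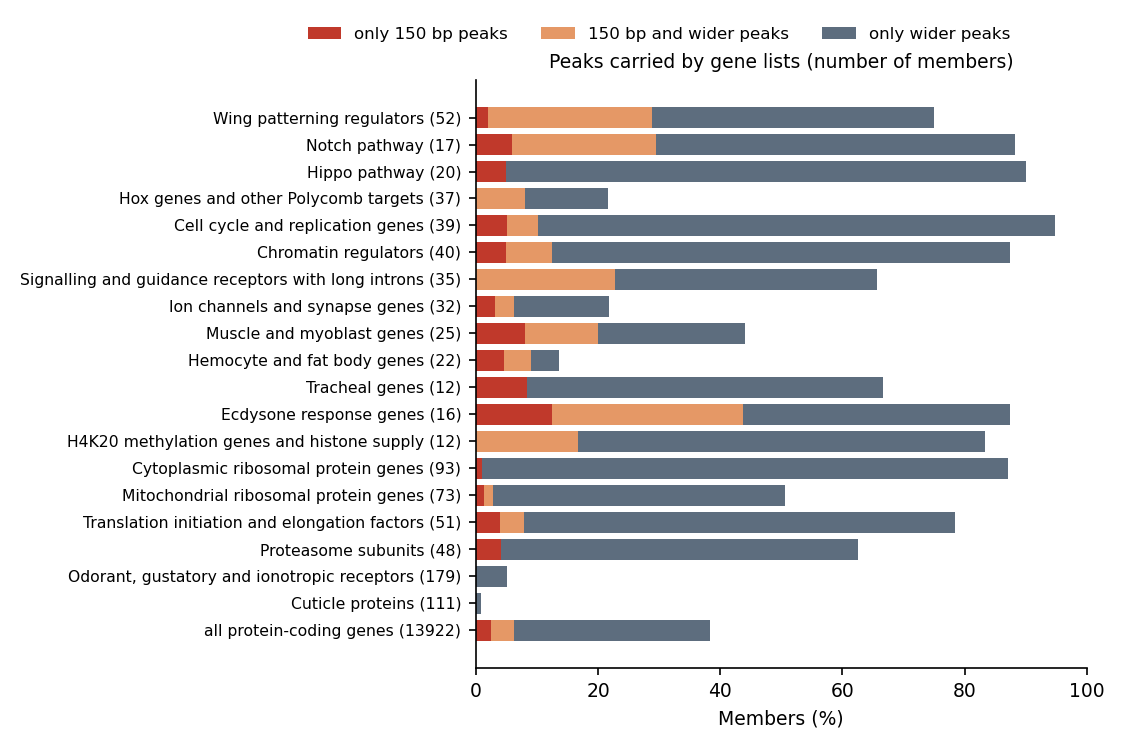
Share of members in % (horizontal axis) of 19 gene lists and of all protein-coding genes (bottom row), with the number of members in brackets; red is genes with only 150 bp peaks, orange genes with 150 bp and wider peaks, and grey genes with only wider peaks. The red part ranges up to 12.5% in the ecdysone list, 2 of 16 genes.

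Among wing patterning regulators (52 genes, median length 15646 bp), 15 carried a 150 bp peak (28.8%, against 6.24% of all protein-coding genes). In 14 of these it lay beside wider peaks of the same gene. The ETS factor gene pnt, which relays EGF receptor signalling, carried 4 with 5 wider peaks, and the POU factor gene nub, expressed in the wing pouch, 3 with 9 wider peaks. A pair of the 3 in nub also overlap Ref2. The exception was rn, the zinc finger gene rotund, which also patterns the pouch. Its only peak, at 3R 7304151 to 7304300, lay 111950 bp from the nearest wider one.

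In the Notch list (median length 9273 bp), 5 of 17 genes carried a 150 bp peak (29.4%, against 6.24% of all protein-coding genes). The co-activator gene mam carried 5 with 6 wider peaks, 3 of them in a row 1050 and 1200 bp apart, and the metalloprotease gene kuz 2 with 11. Su(H), the DNA-binding effector of the pathway (2L 15039488 to 15043334), carried 1 alone, 5850 bp from a 200 bp peak. The gene of the Notch ligand Delta, named after its value was seen, carried 2 with 4 wider peaks. In the Hippo list 17 of the 18 genes with a peak carried only wider ones (94.4%, against 83.7% of all genes with a peak), and Mer, the Merlin tumour suppressor gene, was the single one with a 150 bp peak (X 19691651 to 19691800), 2600 bp from a 700 bp peak.

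The ecdysone response list had 7 of 16 genes with a 150 bp peak (43.8%, against 6.24% of all protein-coding genes). Its median gene length of 36624 bp is far above the 2163 bp of all protein-coding genes. The nuclear receptor gene Hr4 carried 4 with 9 wider peaks and the ecdysone receptor gene EcR 2 with 10. The nuclear receptor genes ftz-f1 and Hr3, which act in the order of ecdysone-induced stages, each carried 1 alone, 22800 and 23850 bp from a wider peak. Measured from the gene's edge, a wider peak lay 1556 bp from ftz-f1 and 12952 bp from Hr3. The peak in Hr3 also overlaps CG46321 and CG12912.

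Of 37 cell cycle genes with a peak, of 39 listed, 33 carried only wider peaks (89.2%, against 83.7% of all genes with a peak), and 4 of the 39 carried a 150 bp peak (10.3%, against 6.24% of all protein-coding genes). The origin licensing gene dup and the germline Cdc25 phosphatase gene twe carried 1 peak of 150 bp alone. Each overlaps a gene with a wider peak. Orc1 and Mcm7, of the replication origin and helicase complexes, carried 1 of each kind. The wider peak nearest to the one in Mcm7 is 51250 bp wide. Of 35 chromatin regulators with a peak, of 40 listed, 30 carried only wider peaks (85.7%). Here Set2, the H3K36 methyltransferase gene, and caly, the gene of the H2A deubiquitinase Calypso, carried 150 bp peaks alone, 6450 and 1250 bp from a wider peak. The caly gene overlaps a gene with a wider peak, and a wider peak lies 167 bp from its own edge. The long genes jing and osa carried 150 bp peaks beside 21 and 3 wider ones.

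Lists of protein synthesis and turnover lay on either side of the 6.24% of all protein-coding genes that carried a 150 bp peak, with 1.08% of cytoplasmic ribosomal protein genes, 2.74% of mitochondrial ribosomal protein genes, 7.84% of translation factors and 4.17% of proteasome subunits. Their median lengths were 1318, 909, 1966 and 1382 bp. Among all genes the share was 1.29% and 2.80% in the deciles with medians of 871 and 1178 bp. It was 2.87% and 4.53% in those with medians of 1522 and 1923 bp. Of 93 cytoplasmic ribosomal protein genes, 80 carried only wider peaks and 1 carried a 150 bp peak, RpL38 (2R 4515388 to 4516458), where it covered 14.0% of the gene and lay 80950 bp from the nearest wider peak. Gprk1 has a 150 bp peak 44850 bp away from this one. Among mitochondrial ribosomal protein genes, mRpL54 carried 1 alone, with 62 bp inside the gene, and mRpS30 carried 1 with a wider peak, of 73 genes. Translation factors had 4 of 51 genes with a 150 bp peak. Those in eIF2D and eIF3f1 were alone, and those in eIF5B and eIF3d1 lay beside 3 and 1 wider peaks. In the proteasome, Rpn9 and Rpt1 carried 1 alone and 28 of 48 genes carried only wider peaks. The peaks of Rpn9 and Rpt1 lay 18250 and 32800 bp from the nearest wider one, and that of Rpt1 also overlaps CG17985. Rpn9 overlaps another gene that carries a wider peak.

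Hox genes and other Polycomb targets (median length 12314 bp) carried 150 bp peaks in 3 of 37 genes (8.11%, against 6.24% of all protein-coding genes). Among all genes the share was 10.2% and 22.8% in the deciles with medians of 9154 and 28800 bp. A peak of any width was carried by 8 of the 37 (21.6%, against 38.3%). All 3 genes with a 150 bp peak had wider peaks too, among them bi (2 with 9) and Antp (1 with 6). The peak in Antp also overlaps CG46458. In the list of signalling and guidance receptors with long introns (median length 40368 bp), 8 of 35 genes carried them (22.9%). All 8 had wider peaks too, including the teneurin gene Ten-a (4 with 18) and the receptor phosphatase gene Ptp99A (2 with 4). None was found in 179 odorant, gustatory and ionotropic receptor genes or in 111 cuticle protein genes, of which 9 and 1 carried a wider peak. These genes are short, with medians of 1691 and 989 bp. Among all protein-coding genes, the share with a 150 bp peak was 1.29% and 2.80% in the deciles with medians of 871 and 1178 bp. It was 2.87% and 4.53% in those with medians of 1522 and 1923 bp. Few of the receptor and cuticle genes carried any peak (5.03% and 0.901%, against 38.3% of all protein-coding genes). Whether 0 falls below the shares for genes of their length was not tested.

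Markers of other cells that a dissected disc can hold carried a few. Of 25 muscle and myoblast genes (median length 18712 bp), 5 carried 150 bp peaks (20.0%, against 6.24% of all protein-coding genes). Those of twi and Mlp84B were alone, and those of Zasp52, a Z-disc gene named after its value was seen, rols and kirre, of myoblast fusion, lay beside 10, 9 and 4 wider ones. The peak in kirre also lies in rst. The peak in Mlp84B also lies in Alh. Of 32 ion channel and synapse genes, the synaptic vesicle priming gene unc-13 carried 1 alone, 13350 bp from a wider peak, and Nmdar1 carried 2 with 1 wider peak. From the edge of unc-13 itself, a wider peak lay 1323 bp away. Both peaks of Nmdar1 also overlap Itpr, the inositol trisphosphate receptor gene. Of 22 hemocyte and fat body genes, Mtp, a lipoprotein assembly gene, carried 1 alone, and the GATA cofactor gene ush carried 4 with 4 wider ones. Of 12 tracheal genes, dysf, a bHLH-PAS factor gene of tracheal fusion, carried 1 alone, 21600 bp from a wider peak. The shares with a 150 bp peak in the ion channel, hemocyte and tracheal lists were 6.25%, 9.09% and 8.33%. Their median lengths were 37056, 3698 and 12038 bp. Among all genes the share was 22.8%, 5.10% and 10.2% in the deciles with medians of 28800, 3353 and 9154 bp. A peak list holds no expression value, so whether such peaks come from these cells was not tested.

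The genes of H4K20 methylation carried none. Set8 and Hmt4-20 had 1 wider peak each and l(3)mbt had 2, and His4r, the H4 gene outside the histone cluster, had no peak, with a wider one 604 bp from its edge. In the list with histone variants and supply factors, 2 of 12 genes carried a 150 bp peak (16.7%, against 6.24% of all protein-coding genes). In both it lay beside a wider peak. They were mxc, which encodes the scaffold of the histone locus body, and Lsd-2. Lsd-2 encodes a lipid droplet protein and is no histone factor. A further 150 bp peak stood 83 bp outside mxc. No 150 bp peak lay among the 111 clustered histone genes of 2L, a stretch that holds 4 wider peaks (these repeated copies share reads, which makes counts there uncertain).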

How the data were processed

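The authors' deposited list gives the chromosome, start, end and width in bp of each H4K20me1 peak of Oregon-R discs, per the labels, and was used as it stands. Both ends belong to the peak, and counting starts at 1. The submitters' processing notes name the build dm6 and the tools edgeR, Bowtie2, deepTools, bedtools and SAMtools, with no versions or roles. How peaks were called, thresholded or merged, and whether replicates were pooled, is not given in the sources used here, and depth per library is unknown.

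Genes came from the RefSeq table of the Release 6 assembly, which was used for positions, symbols and biotypes; strand, exons and sequence were not used. A gene carried a peak that overlapped it by at least 1 bp. Gaps are the bp between peak edges. Arm spans run to the last gene or peak. Python 3.11.15, pandas 2.3.3, numpy 2.4.6 and scipy 1.17.1 were used, and overlap and gap code was tested on simulated data. No test was made.

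The peaks, lists and settings were chosen with earlier results of these data known. Named genes follow a rule: the genes with the most 150 bp peaks (8 of all genes, 8 of those with no wider peak), the 6 most covered and 6 longest of the latter, genes at the 5 nearest, 5 farthest and 5 longest runs, the genes nearest the 5 peaks farthest from any gene, up to 4 and 2 members of each list, and Set8, Hmt4-20, l(3)mbt and His4r. Of the 42 peaks tied as nearest, only 5 were named. Older list symbols were matched through synonyms. A run of peaks is not reported here.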

Additional observations from a re-analysis of the deposited data

How the results depend on the processing

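Over 74 recomputed values under 16 settings, 62 stayed within the interval of the value reported or, for counts and densities, within 1.5 times it. Some of these could hardly move. The histone cluster, left out in 1 setting, holds no 150 bp peak, and each arm left out holds a minority of them. The share of 150 bp peaks in a protein-coding gene (96.0%) became 92.5% when at least 50% of the peak had to lie in the gene, 89.4% for the whole peak and 92.4% for its midpoint, and 47.4% with only genes that overlap no other protein-coding gene, where 163 genes instead of 353 carried only such peaks, 10 of them listed genes instead of 20. With all widths up to 300 bp taken as narrow, the median gap was 2500 bp instead of 2150 bp, 650 genes carried only narrow peaks, 32 of them listed genes, and density was 14.7 instead of 7.90 per Mb. Calling a peak wider only above 300 bp gave a median gap of 2650 bp. Without arm 2R, 13 listed genes carried only narrow peaks. Leaving out peaks within 1 Mb of the ends of the large arms and those on Y, a setting chosen after seeing the data, gave 97.0% in genes and 340 genes. The share of midpoints in the outer 25% at each end (52.2%) ranged from 49.3%, with the whole peak inside the gene, to 53.1%, with widths up to 300 bp, and so fell on both sides of the 50% of the body. The cause of these shifts lies in the settings themselves, which change the peaks or genes counted. No paired analysis was possible because the deposited list holds no value per library, and for the same reason no replicate could be left out. Without a score, a stricter threshold could not be tried; width stood in for it.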
